A study of Rattus norvegicus with 12 samples.

Results

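Epididymal white adipose tissue of rats under caloric restriction (CR) was set against that of rats carrying an antisense transgene to growth hormone (Tg), which is the comparison of restricted feeding with reduced growth hormone action. The arrays were chosen by their titles: 4 CR and 4 Tg arrays, 8 of the 12 in the series. CR rats were Wistar rats without the transgene, held from 6 weeks of age at 70% of the energy intake of freely fed rats. Tg rats were heterozygous transgenic dwarf rats fed ad libitum. The remaining 4 arrays are from freely fed Wistar rats (AL), and their values are given beside the CR and Tg values. All rats were 24 weeks old, and all received food 30 min before lights off and were killed after lights on the next morning. The genotype field reads Wistar (-/-) on every array, the Tg arrays included, so the Tg group rests on titles and source names. The transgene's promoter and the founder line of the Tg rats are not stated in the labels used here. The sample descriptions carry a code, the same on all arrays of a group and another one in each other group. If it marks a working session, session and group cannot be told apart.

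White adipose tissue makes fatty acids from glucose through citrate, acetyl-CoA and malonyl-CoA, joins them to glycerol as triglyceride, and releases them again by lipolysis. Growth hormone from the pituitary favours lipolysis and opposes insulin in fat, and it drives Igf1 transcription. The transcription factors encoded by Srebf1 and Mlxipl are known activators of the genes of fatty acid synthesis. Intact fat is a mixture of adipocytes, macrophages, fibroblasts and vessels, so fewer cells of a type and less RNA per cell cannot be told apart in these data.

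Each value below is a log2 signal, a summary of the perfect-match probes of a probe set, and a difference of 1 is a doubling. Background was 34.5 to 44.1 scanner units on 11 arrays and 58.5 on CR3, and the median probe intensity was 119 to 168. On CR3 5.71% of probes had no value, against 0.324% to 1.88% on the other CR and Tg arrays. The fat pad lies along the epididymis, and transcripts of neighbouring tissues stood out on single arrays. The mean of 13 testis and sperm markers was 8.65 on CR1 and 10.08 on Tg2, against 5.12 to 6.29 on the other 6 CR and Tg arrays. That of 17 epididymal duct markers was 9.10 on CR2, 9.39 on CR4, 9.13 on Tg2, 9.25 on Tg4 and 7.63 on Tg3, and at most 6.92 on CR1, CR3 and Tg1. Caput epididymis markers stood at 10.27 on CR4 alone, and exocrine pancreas markers at 10.75 on Tg1 alone. In an exact permutation test over 70 relabellings, two-sided, p was 0.857 for the testis, 0.771 for the duct, 0.543 for the caput and 0.6 for the pancreas score. The smallest p possible was 0.0286. The 18 adipocyte markers tested averaged 11.46 to 11.96 on the CR arrays and 11.22 to 11.75 on the Tg arrays (exact p = 0.286), so adipocyte transcripts were abundant on all 8.

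**Figure D1:**
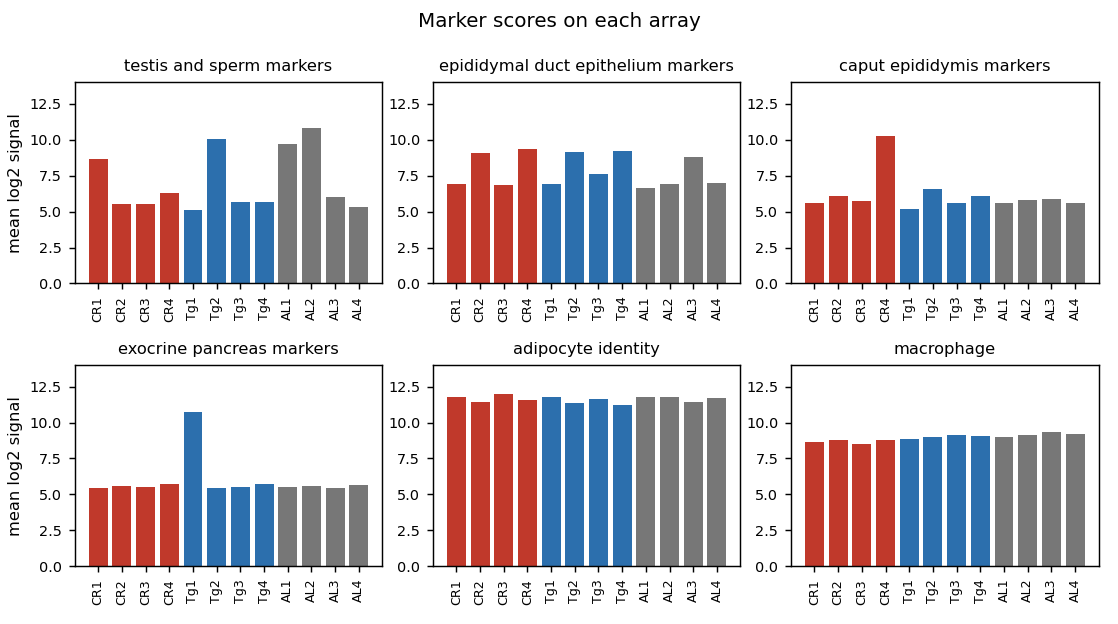
Mean log2 signal of 6 marker lists on each array (vertical axis) for the 4 CR, 4 Tg and 4 AL arrays, left to right; a bar is 1 array. Testis and sperm markers rise on CR1, Tg2, AL1 and AL2, caput markers on CR4 and pancreas markers on Tg1, while adipocyte markers stay between 11.22 and 11.96.

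The 4 CR and 4 Tg arrays differed in 404 of 23281 probe sets tested (1.74%; limma, Benjamini-Hochberg adjusted p under 0.05): 252 (1.08%) rose in CR and 152 (0.653%) fell. Of these, 151 changed at least 1.5-fold, 116 upward and 35 downward. CR and Tg arrays did not overlap in 403 of the 404, against 12% of all probe sets tested. The 404 were selected on these same arrays, so the lack of overlap follows largely from the selection. The largest changes named below were also chosen for no overlap. With each gene represented by its brightest probe set, 151 of 12093 genes rose (1.25%) and 93 fell (0.769%), and the median difference over all genes was -0.02. Arrays of the same replicate number deviated together in CR and Tg (r from 0.353 to 0.649 over the probe sets), although the labels give no reason for a pairing. CR and Tg arrays of different numbers reached r values from -0.789 to 0.754, the highest being CR2 with Tg4, both rich in duct transcripts, so the correlation was not particular to the number. With the replicate number as a block in a fit of those 8, 270 probe sets passed, 207 (0.889%) higher and 63 (0.271%) lower in CR, and 157 were shared with the 404. In a fit of the 8 arrays alone without the block 22 passed. With the testis and duct scores as covariates 1917 passed, 969 (4.16%) higher and 948 (4.07%) lower. The number of calls moved with single arrays: it was 35 without CR1, 40 without Tg2, 73 without CR3, 75 without Tg3 and 558 without CR4. Without Tg4 it was 143, without CR2 or Tg1 147, without AL1 185 and without AL4 236. CR4, the array with caput epididymis transcripts, was the lowest CR array in 170 of the 252 probe sets that rose (67.5%), against 25.7% of all tested. CR3, the array with the highest background, was the highest CR array in 134 of these 252 (53.2%), against 36.0% of all tested. Among the 152 that fell it was the lowest CR array in 82 (53.9%), against 26.9% of all tested. Without CR3, CR4 and Tg1 together 97 probe sets passed, 88 of them higher in CR. The titles call the 4 samples of a group biological replicates, and the labels name no shared litter, cage or day. The p-values measure only the spread between these samples.

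The fatty acid synthesis list stood out on the upward side. Among its 20 tested genes, 13 rose and 0 fell in CR, and 18 had a positive difference, against 1.25%, 0.769% and 46.2% of all genes, and their median log2 difference was 1.15. The mean level of the 20 genes was 10.55, 10.36, 10.55 and 9.89 on CR1 to CR4, against 9.0, 8.96, 9.0 and 9.06 on Tg1 to Tg4. The lowest CR array, CR4, lay above every Tg array. The list was drawn up with earlier results of these data known, so its count describes these arrays only. It was 14 with the replicate block, 6 without CR1 or without Tg2, 7 without CR3 and 8 without Tg3.

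Fatty acid synthase, encoded by Fasn, joins malonyl-CoA units into palmitate. Its signal was 12.98, 12.97, 13.39 and 12.67 on the CR arrays, against 11.05, 10.72, 10.90 and 11.02 on the Tg arrays. All 4 CR arrays lay above all Tg arrays, 4.23-fold on average (log2 difference 2.08, SE 0.14, adjusted p = 0.000122). A dimmer probe set of Fasn differed more, by 3.31 on the log2 scale. Acaca, acetyl-CoA carboxylase, makes the malonyl-CoA, and it read 12.38, 12.13, 12.71 and 11.63 in CR, against 9.91, 9.72, 9.91 and 9.73 in Tg. The groups were far apart, with a 5.26-fold higher mean in CR (log2 difference 2.40, SE 0.19, adjusted p = 0.000406). Acly splits citrate into cytosolic acetyl-CoA. It was 12.69, 12.54, 12.74 and 11.90 in CR, against 10.45, 10.96, 10.54 and 11.04 in Tg, and rose 3.30-fold (adjusted p = 0.00617). These 3 genes passed the threshold in all 25 alternative settings. Of the 84 genes described here that passed, 17 kept their call whichever single array was left out; 67 lost it without CR1, 63 without Tg2, 52 without Tg3, 54 without CR3 and 7 without CR4.

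Other members supply the pathway with acetyl-CoA and NADPH. Me1, malic enzyme, supplies NADPH; it was 11.97, 11.26, 11.72 and 9.82 in CR, against 9.11, 8.79, 8.87 and 8.81 in Tg. CR4 lay 1.44 below the next CR array but still above every Tg array, and the rise was 4.91-fold (adjusted p = 0.0163; 0.0573 without Tg2). Slc25a1, which exports citrate from mitochondria, rose 2.27-fold (adjusted p = 0.0178), and Aacs, acetoacetyl-CoA synthetase, 2.48-fold (adjusted p = 0.0298; 0.0519 with the replicate block). Acss2, which activates acetate, averaged 10.14 ± 0.50 in CR and 9.35 ± 0.26 in Tg (SD, n = 4 each) and did not pass (adjusted p = 0.095; 0.0355 with the block). Acacb, the other carboxylase, read 5.22 ± 0.10 in CR and 5.32 ± 0.06 in Tg (adjusted p = 0.512), and the ranges overlapped; its difference was 0.14 in the authors' table of probe set values.

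Elovl6 lengthens palmitate to stearate. Its signal of 10.90, 9.93, 10.60 and 8.43 on CR1 to CR4 compared with 7.16, 6.67, 7.01 and 6.73 on Tg1 to Tg4, and the CR arrays spread over 2.46 log2 units above the Tg range. The mean was 8.40-fold higher in CR (log2 difference 3.07, SE 0.42, adjusted p = 0.0101). Scd, stearoyl-CoA desaturase, was 13.49, 13.32, 13.66 and 12.52 in CR, against 9.57, 10.97, 11.34 and 11.60 in Tg. The groups did not overlap, but the Tg arrays spread widely and the difference of 2.37 (SE 0.72) did not pass (adjusted p = 0.123; 0.0643 with the block). The summarised signal of Scd exceeded the saturation level on CR1 and CR2. Fads1, a desaturase of polyunsaturated fatty acids, rose 1.54-fold (adjusted p = 0.0377), and the elongase Elovl5 read 12.08 ± 0.24 in CR and 11.66 ± 0.11 in Tg (adjusted p = 0.0782).

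Pnpla3, a lipid droplet protein with acylglycerol hydrolase activity, showed the largest rise of all named genes. It was 11.04, 10.45, 10.88 and 9.37 in CR, against 7.78, 6.63, 7.28 and 7.10 in Tg, 9.45-fold on average (log2 difference 3.24, SE 0.38, adjusted p = 0.00514). The lowest CR array lay 1.60 above the highest Tg array, and 2 dimmer probe sets differed by 3.36 and 3.38.

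The regulators had smaller differences than Fasn, Acaca and Elovl6. Srebf1 was 11.04, 10.83, 11.11 and 10.93 in CR, against 10.47, 9.90, 10.24 and 9.86 in Tg, a 1.82-fold rise (adjusted p = 0.0193). The CR arrays lay close together and above all Tg arrays. Mlxipl, which encodes the carbohydrate-response factor ChREBP, was 8.78, 8.68, 8.71 and 7.86 in CR, against 7.27, 7.07, 7.33 and 7.23 in Tg, a 2.43-fold rise (adjusted p = 0.0209). CR4 stood 0.82 below the next CR array. Mid1ip1, which promotes the assembly of acetyl-CoA carboxylase, rose 2.11-fold (adjusted p = 0.00617), and its paralogue Thrsp 1.71-fold (adjusted p = 0.0181). The summarised signal of Thrsp was above saturation on 3 CR arrays. Without Tg2 the adjusted p was 0.0646 for Srebf1 and 0.0605 for Thrsp, and without CR3 it was 0.0684 for Mlxipl.

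**Figure D2:**
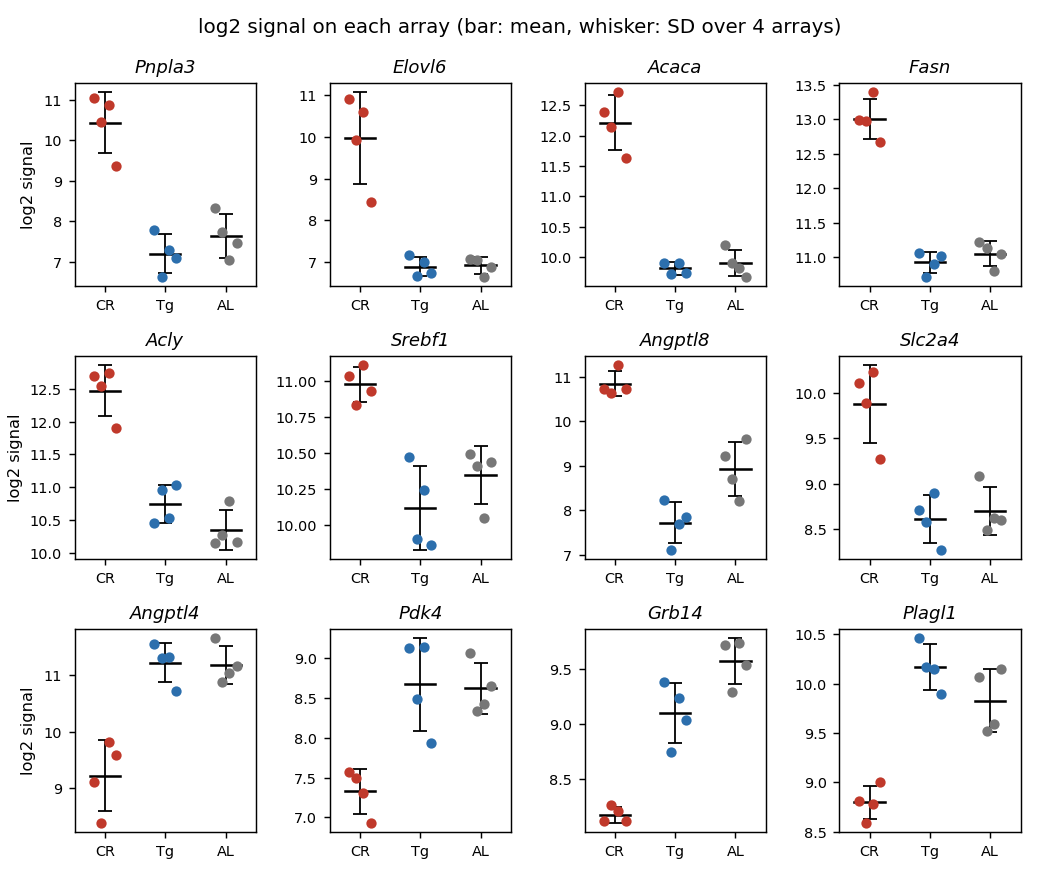
Log2 signal on each array (vertical axis, a separate scale per gene) of 12 genes in CR, Tg and AL, left to right; points are arrays, bars the mean and whiskers the SD over 4. In the first 8 panels every CR point lies above every Tg point, and in the last 4 (Angptl4, Pdk4, Grb14, Plagl1) every CR point lies below.

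The promoters of such genes are shown because the list moved together. RefSeq windows of assembly GRCr8, from 250 bases before to 50 after the gene start, were matched by symbol for 16 of the 20 genes of fatty acid synthesis and 17 of the 21 of cholesterol synthesis. Fasn, Acaca and Elovl6 had no window, so the shares given below leave them out. Below are Pnpla3 (chr7:117173278-117173577, plus strand), Acly (chr10:85963582-85963881, minus strand) and, for contrast, Angptl8 (chr8:28652305-28652604, plus strand), a gene that rose as steeply. Capitals mark CCAAT or its reverse complement ATTGG, the CCAAT box that the factor NF-Y is known to bind.
Pnpla3: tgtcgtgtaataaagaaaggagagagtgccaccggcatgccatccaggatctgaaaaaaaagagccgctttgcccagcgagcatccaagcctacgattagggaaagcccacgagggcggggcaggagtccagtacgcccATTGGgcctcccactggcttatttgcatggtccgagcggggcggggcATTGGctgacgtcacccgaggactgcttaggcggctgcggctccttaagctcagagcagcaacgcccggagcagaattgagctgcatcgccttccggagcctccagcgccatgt
Acly: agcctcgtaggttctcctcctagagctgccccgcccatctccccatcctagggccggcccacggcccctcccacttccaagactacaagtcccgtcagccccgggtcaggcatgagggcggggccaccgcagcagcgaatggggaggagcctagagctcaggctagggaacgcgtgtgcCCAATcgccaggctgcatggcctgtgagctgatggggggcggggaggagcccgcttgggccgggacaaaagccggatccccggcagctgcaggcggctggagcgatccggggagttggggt
Angptl8: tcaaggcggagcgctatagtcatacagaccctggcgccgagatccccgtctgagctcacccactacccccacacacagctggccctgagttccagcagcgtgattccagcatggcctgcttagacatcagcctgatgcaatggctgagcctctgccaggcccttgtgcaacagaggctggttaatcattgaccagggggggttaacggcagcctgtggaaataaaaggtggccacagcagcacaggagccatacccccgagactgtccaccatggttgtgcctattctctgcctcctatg
The matches start at positions -111 and -64 in Pnpla3 and at -71 in Acly, counted from the gene start, and Angptl8 has 0. Over both strands CCAAT occurs in the windows of 10 of the 16 fatty acid genes (62.5%), of 14 of the 17 cholesterol genes (82.4%) and of 39.6% of all 27457 genes with a window. The macrophage genes tested, which were mostly lower in CR, have it in 10 of 19 (52.6%). The E-box CACGTG occurs in 1, 2 and 0 genes of these 3 lists and in 7.08% of all genes, and the sterol-element form TCACNCCAC in 0 of each and in 1.25% of all. No motif contains another. A match describes the letters only and shows neither binding nor a cause.

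Cholesterol synthesis showed a smaller shift in the same direction. All 21 members tested were higher in CR and 8 rose, against 46.2% and 1.25% of all genes, and the median log2 difference was 0.46. Nsdhl, a sterol dehydrogenase late in the pathway, was 9.36, 8.76, 9.04 and 8.27 in CR, against 7.92, 7.72, 7.76 and 7.85 in Tg (2.06-fold, adjusted p = 0.0211; 0.0503 with the block). Every CR array lay above every Tg array. Dhcr7 (1.95-fold), Fdps (1.87-fold) and Cyp51 (1.81-fold), which act in the final reduction, in farnesyl diphosphate synthesis and in lanosterol demethylation, rose as well. Idi1, Hsd17b7, Mvd and the regulator Srebf2 made up the rest, with rises of 1.31 to 1.62-fold; with the block the adjusted p was 0.0551 for Idi1 and 0.078 for Mvd. Insig1, which holds SREBP proteins in the endoplasmic reticulum, averaged 12.04 ± 0.48 in CR and 11.03 ± 0.33 in Tg and did not pass (adjusted p = 0.0783; 0.0379 with the block). The 8 calls became 6 with the block, 3 with the authors' table of probe set values, 0 without CR1, CR3, Tg2 or Tg3, 2 without CR2, Tg1, Tg4 or AL1, and 4 without AL4.

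Glucose entry and the pentose phosphate branch held fewer calls, each upward. Of 19 genes of glucose uptake and glycolysis, 15 were higher in CR, 4 rose and 0 fell, beside the 46.2%, 1.25% and 0.769% over all genes. Slc2a4 encodes the insulin-responsive glucose transporter GLUT4 and was 10.11, 9.89, 10.23 and 9.27 in CR, against 8.71, 8.58, 8.89 and 8.28 in Tg. It rose 2.40-fold (adjusted p = 0.0193; 0.0646 without Tg2), with CR4 0.38 above the highest Tg array. Hk2, hexokinase, was 7.72, 7.31, 7.79 and 7.45 in CR, against 6.60, 5.80, 6.68 and 5.98 in Tg, and rose 2.47-fold (adjusted p = 0.0193; 0.061 without CR3). Aldoa, aldolase, rose 1.43-fold (adjusted p = 0.00972) and Pgam1, phosphoglycerate mutase, 1.26-fold (adjusted p = 0.0198; 0.0696 with the block). The 4 calls became 1 without CR1 or Tg2, and to 2 without CR3 or Tg4. Of 12 genes of the pentose phosphate and NADPH list, Me1, Tkt, Taldo1 and Pgd rose. Tkt, transketolase, was 11.80, 11.57, 11.99 and 11.01 in CR, against 10.49, 10.28, 10.38 and 10.07 in Tg (2.44-fold, adjusted p = 0.0101), and the groups did not overlap.

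Genes of the mitochondrial pyruvate carriers and of pyruvate dehydrogenase rose, while the kinase genes Pdk4 and Pdk1 moved in opposite directions. Of 29 genes of pyruvate dehydrogenase and the citrate cycle, 8 rose and 1 fell, beside 1.25% and 0.769% of all genes, with a median of 0.32. Pdhb, a subunit of pyruvate dehydrogenase, was 11.47, 11.37, 11.82 and 10.95 in CR, against 10.35, 10.07, 10.33 and 10.03 in Tg (2.30-fold, adjusted p = 0.00758). CR lay above Tg on every array. The partner subunit Pdha1 rose 1.63-fold (adjusted p = 0.0267), and the mitochondrial pyruvate carriers Mpc1 and Mpc2 rose 2.15-fold (adjusted p = 0.0143) and 1.57-fold (adjusted p = 0.0269; 0.0546 with the block). Pdk4, a kinase that switches pyruvate dehydrogenase off and rises with fasting, was 7.57, 7.50, 7.30 and 6.93 in CR, against 9.13, 8.49, 9.13 and 7.93 in Tg. It fell 2.54-fold (log2 difference -1.34, SE 0.27, adjusted p = 0.0333), and its highest CR array lay 0.36 below its lowest Tg array. A dimmer probe set of Pdk4 differed by -0.35 (adjusted p = 0.27), and the call was lost without any of 8 arrays, at most at adjusted p = 0.0993 without Tg3. Pdk1, another kinase of the family, rose 2.21-fold (adjusted p = 0.0298). Pdp2, Mdh1 and Idh3a rose 1.35 to 1.47-fold, and these 3 did not pass with the block (adjusted p 0.052 to 0.0709). Pc, pyruvate carboxylase, read 10.92 ± 0.55 in CR and 9.80 ± 0.35 in Tg (adjusted p = 0.0562; 0.0201 with the block). The 8 calls became 1 without CR1 or Tg2, 2 without Tg3 or Tg4, 3 without CR3 or Tg1, 4 without CR2 or AL1, and 5 without AL4.

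All 26 genes of oxidative phosphorylation were higher in CR, by 0.10 to 0.41 on the log2 scale, against 46.2% of all genes with a positive difference, and 4 rose, against 1.25%. Cyc1, of complex III, rose 1.33-fold, Ndufs3, of complex I, 1.29-fold, and the ATP synthase subunits Atp5pb and Atp5po 1.26 and 1.21-fold. With the block Cyc1 kept an adjusted p of 0.0468, while the other 3 went to 0.0691 to 0.104. The count was 0 without CR1, Tg2 or Tg3 and 7 without CR4. Of 25 genes of mitochondrial ribosomes and protein import, 24 were higher in CR, with differences of -0.02 to 0.74, and 7 rose. The 7 calls became 2 without CR1 or Tg2, 3 without CR2, CR3, Tg3 or Tg4, 4 without Tg1, AL1 or AL4, and 4 with the block. Timm10, a chaperone of the intermembrane space, was 9.36, 9.29, 9.44 and 9.24 in CR, against 8.72, 8.74, 8.74 and 8.74 in Tg. The difference was small, 1.51-fold, but wide against the spread of 0.09 (CR) and 0.01 (Tg) (SD, n = 4 each; adjusted p = 0.00285). Mrpl12, of the large mitochondrial ribosomal subunit, rose 1.67-fold (adjusted p = 0.0101), and Timm17a, of the inner membrane translocase, 1.4-fold (adjusted p = 0.0167). Cytosolic ribosomal protein genes stood at a median of 0.02, with 0 of 17 past the threshold.

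**Figure D3:**
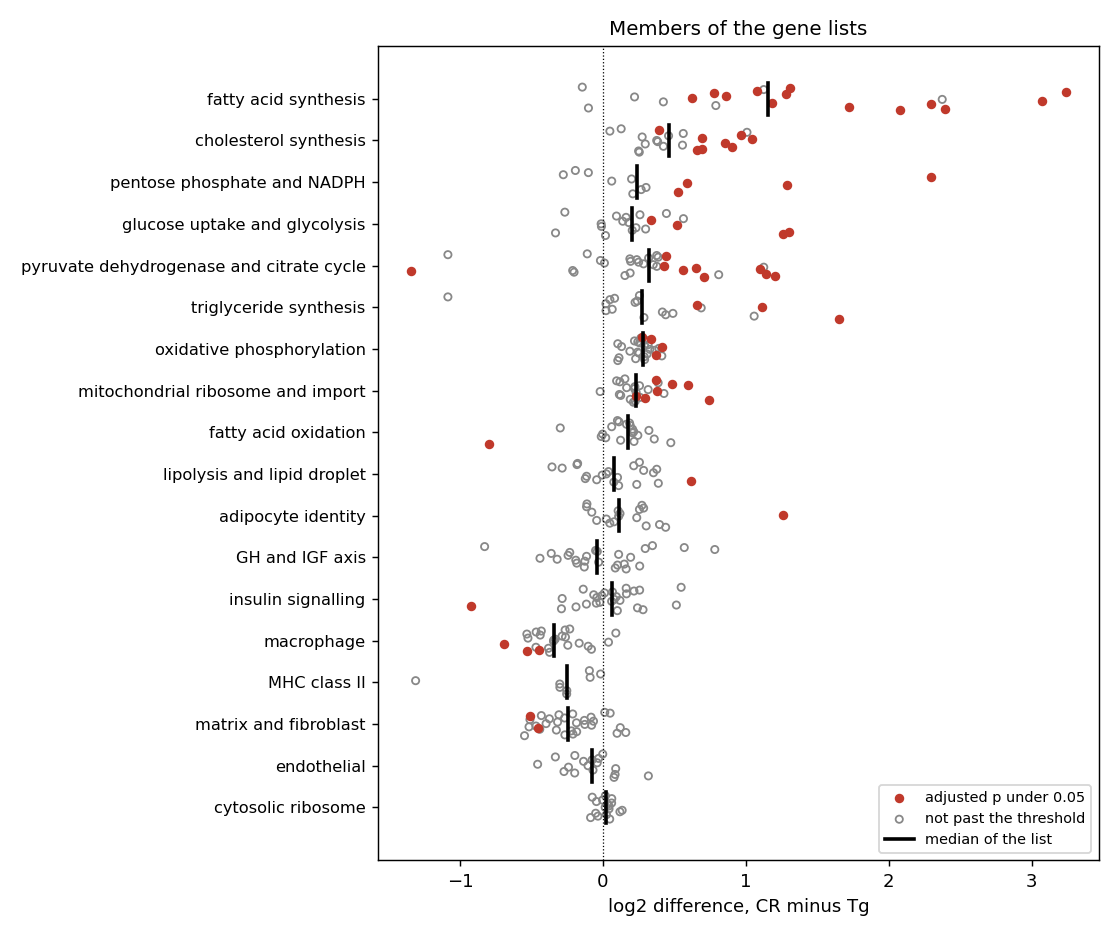
Log2 difference, CR minus Tg (horizontal axis), of each tested member of 18 gene lists; filled points passed adjusted p under 0.05, open points did not, and the black bar is the median of the list. Fatty acid synthesis stands furthest right with a median of 1.15, and the macrophage list stands left of 0 with a median of -0.35.

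Genes of fatty acid oxidation held 1 call. Of 20 members 16 had a positive difference, against 46.2% of all genes. In the list 0 rose and 1 fell, beside 1.25% and 0.769% of all genes. The fall was that of Cpt1a, which admits fatty acids to mitochondria. Cpt1a was 7.84, 8.16, 7.62 and 8.36 in CR, against 8.74, 8.74, 9.0 and 8.70 in Tg, and fell 1.74-fold (adjusted p = 0.0312; 0.0746 with the block; 0.0978 without Tg3). All CR arrays were below all Tg arrays. The median of the list was 0.18. Of 19 genes of branched-chain amino acid breakdown 0 passed, with a median of 0.05. Ucp1, the thermogenic uncoupling protein, averaged 4.83 in CR and 4.8 in Tg and was too dim to be tested.

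In triglyceride synthesis 17 of 18 genes tested were higher in CR, against 46.2% of all genes, 3 rose, against 1.25%, and 0 fell. Gpam, which attaches the first acyl chain to glycerol phosphate, was 9.40, 9.05, 9.12 and 8.22 in CR, against 7.75, 6.89, 7.66 and 6.88 in Tg. It rose 3.14-fold (adjusted p = 0.02; 0.0648 without CR3), and the groups did not overlap. Mogat2, a monoacylglycerol acyltransferase, rose 2.17-fold (adjusted p = 0.0193), and Gpd1, which makes glycerol phosphate, 1.58-fold (adjusted p = 0.0369). With the block 6 passed, among them Agpat2 (11.42 ± 0.48 in CR, 10.36 ± 0.59 in Tg; adjusted p = 0.0201, against 0.123 without the block) and Dgat2 (12.48 ± 0.26 in CR, 11.79 ± 0.31 in Tg; 0.0355, against 0.0756). The 3 calls became 0 without CR1, CR3 or Tg2 and 1 without CR2 or Tg4. Dgat1, which like Dgat2 adds the last acyl chain, was 10.53 ± 0.15 in CR and 10.47 ± 0.33 in Tg (adjusted p = 0.865).

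Among 21 genes of lipolysis and the lipid droplet, 1 rose and 0 fell, beside 1.25% and 0.769% of all genes. G0s2, an inhibitor of adipose triglyceride lipase, was 11.71, 11.59, 11.92 and 11.87 in CR, against 10.99, 11.28, 11.05 and 11.29 in Tg, and 11.77, 11.36, 11.63 and 11.87 in AL. CR lay above Tg on every array and overlapped AL. The rise over Tg was 1.54-fold (adjusted p = 0.0312; 0.0503 with the block; 0.0978 without Tg3). The droplet coat gene Plin1 was 12.35 ± 0.17 in CR and 12.40 ± 0.17 in Tg (adjusted p = 0.873).

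The angiopoietin-like genes moved in opposite directions. Angptl8, a secreted factor of fed fat and liver that takes part in the inhibition of lipoprotein lipase, was 10.73, 10.64, 11.26 and 10.71 in CR, against 8.22, 7.12, 7.70 and 7.84 in Tg. The gap between the groups was 2.42, and the rise was 8.68-fold (log2 difference 3.12, SE 0.30, adjusted p = 0.00158). Angptl4, a secreted inhibitor of lipoprotein lipase that rises with fasting, was 9.11, 8.39, 9.81 and 9.58 in CR, against 11.55, 11.31, 11.32 and 10.73 in Tg. It fell 4.01-fold, the largest fall among the named genes that passed (log2 difference -2.0, SE 0.29, adjusted p = 0.0143; 0.0554 without Tg2), with all CR arrays below all Tg arrays. Lpl itself read 13.55 ± 0.16 in CR and 13.43 ± 0.09 in Tg (adjusted p = 0.514). Its summarised signal was above saturation on 2 CR and 3 Tg arrays.

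Genes of the growth hormone axis, the pathway the transgene was aimed at, held 0 calls among 25 tested, near the 1.25% that rose and 0.769% that fell over all genes. Gh1 is a pituitary gene, and its level in fat is no check of the transgene: it was 5.76 ± 0.07 in CR and 5.60 ± 0.16 in Tg (adjusted p = 0.34). The receptor Ghr was 11.57, 11.19, 11.22 and 11.24 in CR, against 11.41, 11.21, 11.45 and 10.80 in Tg, and 11.47, 11.73, 11.61 and 11.68 in AL. CR and Tg overlapped (adjusted p = 0.792), and the sign of their small difference turned without CR1 or without Tg4. Igf1 was 11.91, 11.89, 11.98 and 12.13 in CR, against 11.95, 12.42, 12.20 and 12.10 in Tg, and 12.23, 12.39, 12.55 and 12.29 in AL (CR minus Tg -0.19, SE 0.11, adjusted p = 0.368). A dimmer probe set of Igf1 differed by -0.65 (adjusted p = 0.059) and another by -0.35 (adjusted p = 0.142). Socs2, a feedback inhibitor of the receptor, read 5.45 ± 0.16 in CR and 5.64 ± 0.21 in Tg (adjusted p = 0.654). Prlr, the prolactin receptor of the same family, averaged 6.79 ± 0.65 in CR and 6.01 ± 0.14 in Tg (adjusted p = 0.168). Igfbp5, which binds IGF, averaged 10.94 ± 0.15 in CR and 11.31 ± 0.18 in Tg (adjusted p = 0.111).

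Insulin signalling held 1 call among 26 genes, a fall, beside the 1.25% that rose and 0.769% that fell over all genes. Grb14, an adaptor that binds and inhibits the insulin receptor, was 8.12, 8.27, 8.21 and 8.12 in CR, against 9.39, 8.75, 9.24 and 9.04 in Tg, and 9.72, 9.29, 9.74 and 9.54 in AL. It fell 1.90-fold (log2 difference -0.93, SE 0.13, adjusted p = 0.0143; 0.0516 without CR1), and the CR arrays lay within 0.15 of each other. The receptor Insr (7.43 ± 0.07 in CR, 7.33 ± 0.24 in Tg; adjusted p = 0.716) and Irs1 (5.80 ± 0.28 in CR, 5.51 ± 0.31 in Tg; adjusted p = 0.461) overlapped between the groups. The adipokines leptin and adiponectin did not pass. Lep was 11.11, 10.89, 11.05 and 11.09 in CR, against 10.83, 10.33, 10.80 and 10.58 in Tg (log2 difference 0.40, adjusted p = 0.136), with all CR arrays higher. Adipoq averaged 13.38 ± 0.16 in CR and 13.33 ± 0.09 in Tg (adjusted p = 0.836), and its sign turned with quantile normalization. Its summarised signal exceeded saturation on CR2 and Tg1. Pparg, the adipocyte master regulator, was 10.65 ± 0.34 in CR and 10.21 ± 0.65 in Tg (adjusted p = 0.474).

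**Figure D4:**
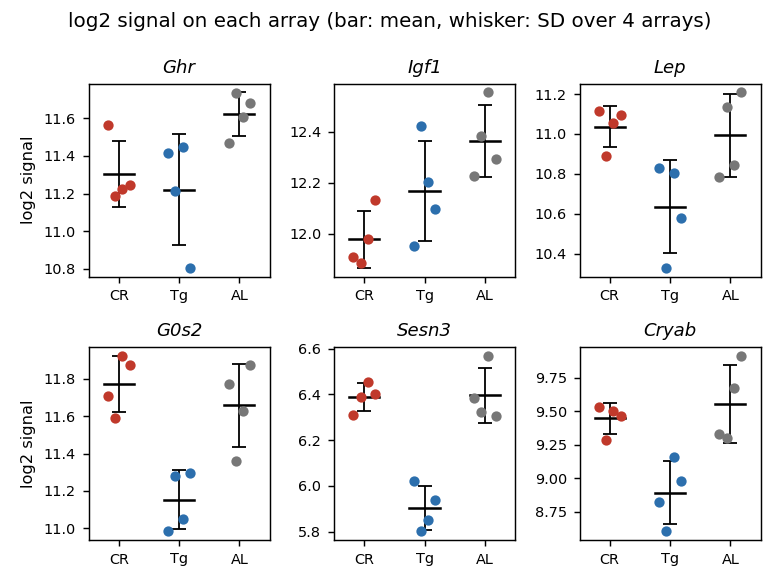
Log2 signal on each array (vertical axis, a separate scale per gene) of Ghr, Igf1, Lep, G0s2, Sesn3 and Cryab in CR, Tg and AL, left to right; points are arrays, bars the mean and whiskers the SD over 4. CR and Tg overlap for Ghr and Igf1, while for G0s2, Sesn3 and Cryab the 4 Tg arrays lie below all CR and all AL arrays.

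Most macrophage genes had lower means in CR. Of 24 tested, 22 were lower, against 53.8% of all genes, and 3 fell, against 0.769%, with a median of -0.35. The mean of the 24 was 8.53 to 8.80 on the CR arrays and 8.83 to 9.15 on the Tg arrays, which did not overlap (difference -0.326; exact permutation p = 0.0286, the smallest possible, and 0.186 after Benjamini-Hochberg adjustment over 13 scores). The mean of 9 nerve markers was higher in CR by 0.159 with the same p values, and its part in any result was not tested. Adgre1, a surface receptor used as a macrophage marker, was 7.89, 7.99, 7.79 and 8.01 in CR, against 8.34, 8.47, 8.65 and 8.34 in Tg. It fell 1.45-fold (adjusted p = 0.0215; 0.0646 with the block), and CR lay below Tg on every array. Cybb, a subunit of the phagocyte oxidase, fell 1.61-fold (adjusted p = 0.0369; 0.0712 with the block) and the growth factor receptor Csf1r 1.36-fold (adjusted p = 0.0453; 0.0832 with the block). Cd68 was 8.73, 8.62, 8.73 and 8.68 in CR, against 9.04, 9.04, 9.18 and 9.0 in Tg; it missed the threshold (adjusted p = 0.061) and passed with the block (0.0488). Csf1r lost its call without any of the 12 arrays, and the 3 calls became 0 without CR1, CR3, Tg2 or Tg3 and 1 without CR2, Tg4, AL1 or AL4. Among the largest falls of all genes were the C-type lectins Cd209f (2.56-fold; adjusted p = 0.0411, 0.0677 with the block) and Clec4a3 (1.82-fold, adjusted p = 0.0193) and the sialic acid-binding lectin Siglec10. Siglec10 was 5.89, 5.78, 5.87 and 6.44 in CR, against 7.51, 7.23, 7.08 and 7.21 in Tg, and fell 2.40-fold (adjusted p = 0.0193). Pla2g2d, a secreted phospholipase, fell 1.75-fold (adjusted p = 0.0233; 0.0747 with the block). Of 8 MHC class II genes all had lower means in CR, against 53.8% of all genes, and 0 passed, but the groups overlapped. RT1-Bb, 1 of the 8, was 5.82 on CR1, against 11.90, 10.05 and 11.96 on CR2 to CR4. With 1 array left out its difference ranged from -1.99 to 0.058, so its lower mean rested on CR1. The mean of the 8 was 8.9, 10.3, 9.31 and 10.4 on CR1 to CR4, against 9.77, 10.24, 9.75 and 10.46 on Tg1 to Tg4. Of 25 chemokines and cytokines 19 were lower and 0 passed. Of 17 lymphocyte genes 9 were lower and 0 passed, near the 53.8% and 0.769% over all genes.

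Of 30 matrix and fibroblast genes 25 were lower in CR, against 53.8% of all genes, and 2 fell, against 0.769%. Mmp2, a gelatinase, fell 1.42-fold (adjusted p = 0.0257; 0.0706 with the block), while a dimmer probe set differed by 0.17 the other way (adjusted p = 0.485), and Col6a3, a collagen chain, 1.37-fold (adjusted p = 0.0343; 0.0884 with the block). The mean of the 30 genes was 10.58, 10.44, 10.58 and 10.58 in CR, against 10.60, 10.85, 10.95 and 10.73 in Tg. CR lay below Tg, by 0.02 at the closest. The count was 0 without CR1, CR2, CR3, Tg1, Tg2 or Tg3, and 1 without AL1. Ltbp1, which tethers latent TGF-beta to the matrix, fell 1.64-fold (adjusted p = 0.0394; 0.0654 with the block). Endothelial and smooth muscle lists held 0 calls among 17 and 12 genes, near the 1.25% that rose and 0.769% that fell over all genes. Their medians were -0.08 and -0.02.

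Other named genes fell outside these groups. Plagl1, an imprinted zinc finger gene, was 8.82, 8.59, 8.79 and 9.0 in CR, against 10.46, 10.17, 10.15 and 9.90 in Tg. It fell 2.59-fold (log2 difference -1.37, SE 0.16, adjusted p = 0.00514), held its call in all 25 settings, although the difference was -0.74 in the authors' table of probe set values, and its CR and Tg arrays were 0.90 apart. The transcript annotated as Apeg3 fell 2.06-fold (adjusted p = 0.0169; 3 dimmer probe sets, by -0.78 to -0.15, did not pass), the mitotic kinesin Kif15 1.93-fold (adjusted p = 0.0147), the retinol-binding protein Rbp7 1.85-fold (adjusted p = 0.0377; 0.0677 with the block), the kinase Pim3 1.82-fold (adjusted p = 0.0428) and the repressor Klf11 1.74-fold (adjusted p = 0.0188). Pim3 lost its call without any of the 12 arrays. The immediate early gene Jun fell 1.41-fold (adjusted p = 0.0188), although 2 other probe sets differed by -0.16 and -0.11 and did not pass. In the glucocorticoid and fasting list 3 of 19 fell, against 0.769% of all genes. They were Angptl4, Pdk4 and Txnip, the last falling 1.38-fold (adjusted p = 0.0447, and 0.0959 with the block). Gabpa, a nuclear respiratory factor, fell 1.26-fold (adjusted p = 0.0435, and 0.0757 with the block). It was the only call among 15 genes of mitochondrial biogenesis and thermogenesis, beside the 1.25% that rose and 0.769% that fell over all genes.

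Upward, Ppp1r3b, which targets protein phosphatase to glycogen, rose 2.95-fold (8.43 ± 0.55 in CR, 6.87 ± 0.17 in Tg; adjusted p = 0.0144). Other glycogen genes, chosen after their values were seen, lay the same way: the phosphorylase Pygl rose 1.86-fold (adjusted p = 0.0146) and the branching enzyme Gbe1 1.71-fold (adjusted p = 0.0198), while the synthase Gys2 averaged 6.44 ± 0.54 in CR and 5.36 ± 0.36 in Tg (adjusted p = 0.0591; 0.0168 with the block). Oxtr, the oxytocin receptor, was 9.78, 8.89, 9.56 and 8.56 in CR, against 8.07, 6.93, 8.25 and 7.39 in Tg. It rose 2.91-fold (adjusted p = 0.0473) and kept its call when CR4 was left out but not without any other array. Mrap, the accessory protein of melanocortin receptors, rose 2.54-fold (adjusted p = 0.0127), Parm1 2.57-fold (adjusted p = 0.0215) and C8h11orf54 2.77-fold (adjusted p = 0.00617), although a dimmer probe set of C8h11orf54 differed by only 0.03 (adjusted p = 0.948). The transferrin receptor Tfrc and the haem synthesis enzymes Alas1 and Alad, also chosen after their values were seen, rose 1.66-fold (adjusted p = 0.0101), 1.63-fold (0.017; 0.0651 with the block) and 1.49-fold (0.017). Nabp1, which binds single-stranded DNA and was likewise chosen afterwards, was 10.31, 10.08, 10.70 and 10.77 in CR, against 9.18, 9.35, 9.07 and 9.22 in Tg. The groups were 0.73 apart, and the rise was 2.39-fold (adjusted p = 0.00392).

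The AL arrays entered the same fit, and the comparisons with AL share arrays with each other and with CR against Tg, so they are set side by side only. CR against AL held 417 calls (1.79%), 203 higher (0.872%) and 214 lower (0.919%), and Tg against AL 2 (0.00859%). Of the 404 probe sets that separated CR from Tg, the AL mean was nearer to the Tg mean in 362 and nearer to the CR mean in 42; over all probe sets tested it was nearer to Tg in 59.9%. The log2 difference of Fasn from AL was 1.95 in CR and -0.12 in Tg, and that of Elovl6 3.05 in CR and -0.03 in Tg. For Angptl4 it was -1.96 in CR and 0.04 in Tg. Angptl8 was 9.21, 8.70, 8.21 and 9.61 in AL, with mean differences from AL of 1.91 in CR and -1.21 in Tg. Scd ranged within AL from 9.17 on AL1 to 12.76 on AL3.

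**Figure D5:**
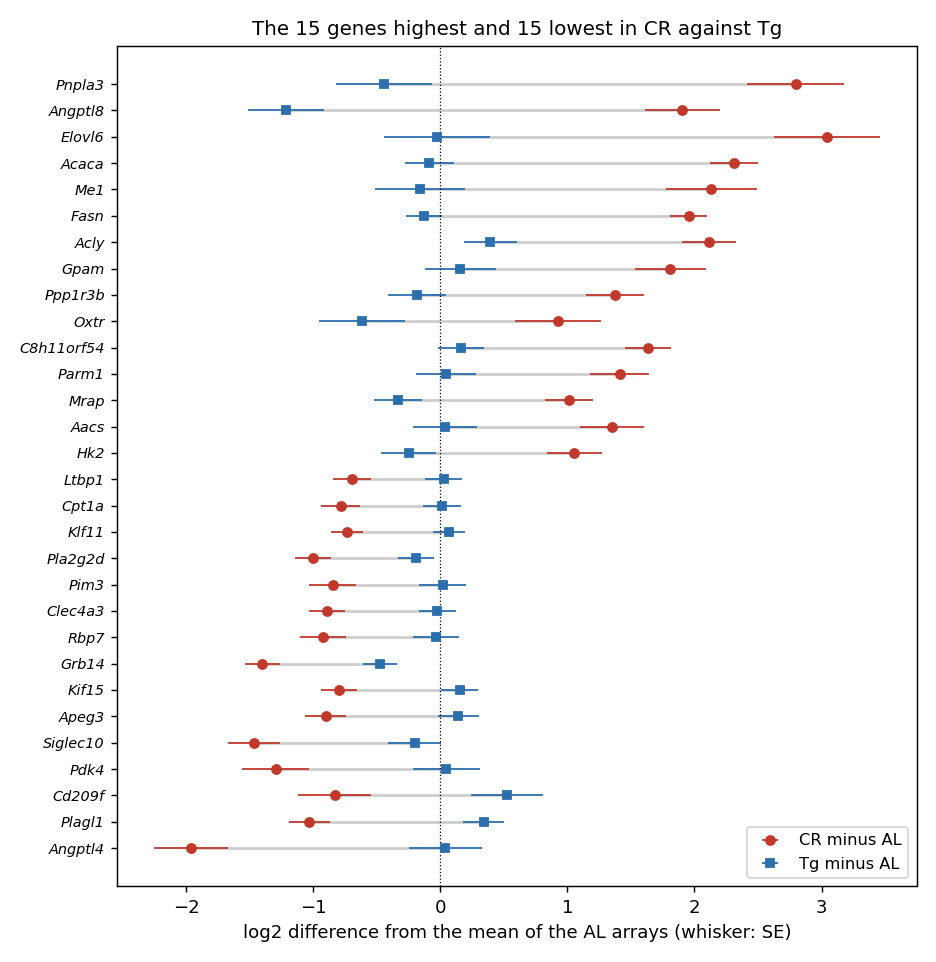
Log2 difference from the mean of the 4 AL arrays (horizontal axis; whisker, SE of the fit) for the 15 largest rises and 15 largest falls of CR against Tg; circles are CR minus AL and squares Tg minus AL. Most squares lie near 0, the furthest left being those of Angptl8 and Oxtr and the furthest right that of Cd209f. Tg minus AL did not pass for any of these genes, and CR minus AL did not pass for Oxtr or Cd209f.

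For some genes the Tg arrays lay below both other groups. Sesn3, a stress-induced sestrin chosen after its values were seen, was 6.31, 6.39, 6.45 and 6.40 in CR, against 6.02, 5.80, 5.85 and 5.94 in Tg, and 6.38, 6.32, 6.57 and 6.30 in AL. CR and AL overlapped, and Tg lay below both (CR against Tg 1.4-fold, adjusted p = 0.0197; 0.0625 with the block; 0.0702 without Tg3). G0s2 and the kinase gene Hipk2 (1.46-fold, adjusted p = 0.0369) also had Tg as the lowest group. The difference from AL was 0.11 in CR and -0.51 in Tg for G0s2, and 0.12 in CR and -0.42 in Tg for Hipk2. Cryab, a small heat shock protein, was 9.53, 9.28, 9.51 and 9.46 in CR, against 8.83, 8.61, 9.16 and 8.98 in Tg, and 9.33, 9.30, 9.67 and 9.91 in AL (CR against Tg, adjusted p = 0.0901; 0.0423 with the block). None of these Tg levels passed against AL.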

How the data were processed

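Total RNA of epididymal fat was measured on 1-colour Affymetrix rat arrays. The deposited score is a z-score for each perfect-match probe. Per the deposited parameter table, the authors subtracted background, took log10 of the intensity, and then centred and scaled each array. Undoing it with an array's own parameters returned whole numbers below 5000 (tolerance 0.01). The tool behind this step is not given in the labels or headers. As an alternative, the authors' deposited table of probe set signal values was used.

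The scores were brought to one scale with the mean parameters of the 12 arrays. The probes of a set, usually 11, were summarised by median polish to a log2 signal, with signals below 1 set to 1. This replaced the single deposited value per probe set that the plan had assumed. Array-wise scaling removes any shift common to all probes of an array. After removal of 57 control sets and of sets at or below the 25th percentile of mean signal, 23281 of 31099 remained. The platform annotation gives 1 symbol to 20826 sets, several to 436 and none to 9780; of these, 20764 matched RefSeq by gene ID. A gene was represented by its brightest set.

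CR, Tg and AL were fitted together with limma 3.58.1 (R 4.3.3; moderated test with mean-variance trend, 12 arrays, Benjamini-Hochberg adjustment over all sets). The 12 arrays limit the precision, with a median SE of 0.11. In simulated data for CR against Tg on 23281 sets the script was tested with known changes. Marker scores were tested by exact permutation. Python 3.11.15, numpy 2.4.6 and pandas 2.3.3 were used.

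Same-numbered CR and Tg arrays correlated in their deviations from the group means (r 0.353 to 0.649). Arrays of different numbers in these groups gave r from -0.789 to 0.754, and same numbers with AL -0.529 to 0.529. The labels give no basis for pairing, and the correlation was not particular to the number, so no pairing is established. Fits with the replicate number as a block are alternatives, given beside named genes whose call they change. The 25 alternatives covered arrays left out, the block, marker scores as covariates, summary, scaling, filter and trend.

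Genes named were the 15 largest rises and falls without overlap, up to 4 called members per direction of each list (or up to 2 with the smallest p), and 25 fixed genes. Of the genes described, 32 fall outside this rule and were chosen after their values were seen. Members and lists were chosen with earlier results of these data known.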

Additional observations from a re-analysis of the deposited data

Results flagged for a closer look

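A value was singled out when the highest or lowest of the 4 arrays of a group lay so far from its nearest neighbour, relative to the group's range, that Dixon's critical value was passed, which chance does in about 1 of 20 groups. Of 218 groups of 4 over 109 genes 16 met this, and of 26 groups over 13 marker scores 5 did.

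Among genes of metabolism, Angptl8 was 11.25 on CR3, with the next CR array at 10.73. Mlxipl was 7.86 on CR4, against 8.68 on the next, and Alas1 9.14 on CR4, against 9.55. Srebf2 was highest on CR4, at 8.39. In Tg, Cpt1a was highest on Tg3, at 9.0, Aldoa was lowest on Tg1, at 12.23, and so was Ndufs3, at 9.71. Timm10 was 8.72 on Tg1, although all 4 Tg arrays lay within 0.03, and Timm17a was 9.26 on Tg2.

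Siglec10 was highest on CR4, at 6.44, Csf1r on Tg3, at 9.92, and Ghr on CR1, at 11.57. The lowest values were those of Apeg3 on CR4, at 9.08, of Col6a3 on CR2, at 10.18, of Gh1 on CR4, at 5.66, and of Adipoq on Tg4, at 13.20.

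The testis and sperm score stood apart on Tg2, at 10.08, the caput epididymis score on CR4, at 10.27, and the exocrine pancreas score on Tg1, at 10.75. The skeletal muscle score was lowest on CR1, at 6.66, as was the smooth muscle and pericyte score, at 8.31. CR4 held 7 of these 21 values and Tg1 4. The part of these arrays in the results was not tested beyond the values without them.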

How the results depend on the processing

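The 404 probe sets called between CR and Tg became 22 with the 8 arrays alone, 199 with a replicate block over 12 arrays, 231 with arrays centred on the median, 1917 with testis and duct scores as covariates, 1207 with these and the replicate block, 97 when the arrays CR3, CR4 and Tg1 were dropped together, and 35 to 558 with 1 array left out. In the same order of settings, apart from the first and the third, CR against AL went to 273, 1762, 1020 and 107, and to 40 to 376 with 1 array left out. Tg against AL held 0 calls with either replicate block, the authors' probe set values, the mean of probes, centring, quantile normalization or without the 3 arrays, 1 with the scores or a filter at the median, and 0 to 2 with 1 array left out. The genes of fatty acid synthesis that rose numbered 5 with the 8 arrays alone and 6 to 16 with 1 array left out. Those of cholesterol synthesis numbered 0 with the 8 arrays alone, 5 with the block over 12 arrays, 14 with the scores, 14 with scores and block, 3 with the authors' values, 5 after centring, 1 without the 3 arrays and 0 to 7 with 1 array left out. With the 8 arrays alone the calls in glycolysis, pyruvate dehydrogenase and citrate cycle, oxidative phosphorylation, triglyceride synthesis, macrophage and matrix genes also became 0, and those in mitochondrial ribosomes and import 2. The causes were not tested.

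None of the 84 called genes described changed sign in any of the 25 settings, and 10 of them kept their call in all. With the replicate block over the 8 arrays 27 lost it and 8 others gained one. Signs turned for genes that had not passed. Acacb differed by 0.14 with the authors' values, and Adipoq by -0.0745 after quantile normalization and -0.0489 without the 3 arrays. Without the 3 arrays Lpl differed by -0.015 and Socs2 by 0.0072. With 1 array left out, Adipoq ranged from -0.0267 to 0.10, Dgat1 from -0.0508 to 0.18, Ghr from -0.0519 to 0.16 and Plin1 from -0.12 to 0.013. RT1-Bb ranged from -1.99 to 0.058. The CR minus Tg difference of the marker scores turned too. It ranged from -0.876 to 0.993 for testis, -0.613 to 0.235 for the duct, -0.046 to 1.511 for the caput, -1.754 to 0.007 for pancreas, -0.032 to 0.144 for skeletal muscle (-0.058 over all its probe sets), -0.371 to 0.005 for mesothelium, -0.037 to 0.066 for lymphocytes and -0.095 to 0.067 for smooth muscle. Saturation limits Scd, Thrsp, Lpl and Adipoq, whose summarised signals exceeded it on some arrays. Saturation of single probes was not examined gene by gene. Differences of dim genes near background may be compressed, which was not tested.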
